A study of Mus musculus with 8 samples.

Results

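The 8 livers of this series fell into 2 sets by the RNA of 2 clock genes, Dbp and Arntl. In 4 of the 8 libraries Dbp had a higher CPM (the reads of a gene scaled to a common library total) than Arntl, and in the other 4 a lower one. The high-Dbp set holds Fl/Fl 9, Fl/Fl 10, LKO 12 and LKO 13, and the low-Dbp set holds Fl/Fl 5, Fl/Fl 7, LKO 3 and LKO 4. Each set thus holds 2 libraries of each genotype. The sets were defined from these values and not from a label, and no source used here gives the time of day of collection. A p-value below compares 2 sets of libraries picked by 2 of their own RNAs, and a gene that follows Dbp or Arntl across these libraries had to differ between them.

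In the circadian clock of liver cells, ARNTL (BMAL1) pairs with CLOCK or NPAS2, binds E-boxes and drives the genes of its own repressors, the PER and CRY proteins, and of Nr1d1, Nr1d2, Ciart and Dbp. NR1D1 and NR1D2 (REV-ERB alpha and beta) in turn repress genes with ROR elements, among them Arntl, Npas2, Cry1 and Nfil3, while the ROR receptors activate them. DBP, TEF and HLF, the PAR bZIP factors, activate genes through D-boxes, which NFIL3 represses. Dbp and Arntl RNA peak at nearly opposite times of the day in liver.

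All mice were at week 7 and carried the treatment label NT, which the labels do not spell out. Fl/Fl mice carry the floxed Pkd1l1 allele and LKO mice have Pkd1l1 deleted in the liver only, a model of a candidate gene for biliary atresia. No source used here names the Cre driver of the deletion. Every library is from a female mouse except Fl/Fl 10, which is from a male and belongs to the high-Dbp set. Total RNA was sequenced, and the deposited counts over the listed genes summed to 71491723 to 76622375 reads per library. A count of 3 reads was worth 0.0392 to 0.0420 CPM. The labels name hepatocytes and cholangiocytes as the cell type. The hepatocyte marker Alb took 5.47% of the reads of Fl/Fl 10 and 9.63% to 11.2% of the others, and 8 cholangiocyte markers summed to 42.1 to 60.7 CPM. Pkd1l1 itself had 0 to 2 reads in each library, too few to check the genotype labels.

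Dbp had 2.47, 3.56, 0.607 and 1.59 CPM in the low-Dbp libraries and 27.6, 45.2, 54.3 and 42.3 CPM in the high-Dbp libraries. Here and below, low-Dbp values are in the order Fl/Fl 5, Fl/Fl 7, LKO 3, LKO 4 and high-Dbp values in the order Fl/Fl 9, Fl/Fl 10, LKO 12, LKO 13. Arntl ran the opposite way, with 39.9, 30.0, 30.3 and 25.7 CPM in the low-Dbp libraries and 8.75, 3.90, 5.31 and 8.32 CPM in the high-Dbp libraries. The ratio of Dbp to Arntl was 0.0618, 0.119, 0.0200 and 0.0618 in the low-Dbp libraries and 3.15, 11.6, 10.2 and 5.08 in the high-Dbp libraries. The library just inside the high-Dbp set was Fl/Fl 9, at 3.15, and the one just outside was Fl/Fl 7, at 0.119. CPM does not correct for gene length, so a ratio of 1 does not mean equal numbers of molecules. In the deposited length-corrected FPKM values the ratio ran from 0.0503 to 0.298 in the low-Dbp set and from 7.92 to 29.1 in the high-Dbp set, the same split. The labels number the low-Dbp libraries 3, 4, 5 and 7 and the high-Dbp libraries 9, 10, 12 and 13, and do not say what the numbers stand for.

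Promoters of 5 clock genes are shown as examples of the motifs through which the clock proteins act on one another. Each is the 250 bases before the transcription start in RefSeq on build GRCm38.p6, 5′ to 3′ on the gene's strand, and capitals mark the motif. Ciart (chr3:95882229-95882478, minus strand) holds 3 E-boxes, CACGTG, which read the same on both strands.
Ciart: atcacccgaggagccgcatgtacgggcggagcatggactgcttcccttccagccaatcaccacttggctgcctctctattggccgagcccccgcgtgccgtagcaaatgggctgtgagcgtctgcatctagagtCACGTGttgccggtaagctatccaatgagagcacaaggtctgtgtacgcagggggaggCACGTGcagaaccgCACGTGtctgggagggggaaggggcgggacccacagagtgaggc
Bhlhe41 (chr6:145865421-145865670, minus strand) and the upstream start of Tef (chr15:81802423-81802672, plus strand) hold 1 E-box each.
Bhlhe41: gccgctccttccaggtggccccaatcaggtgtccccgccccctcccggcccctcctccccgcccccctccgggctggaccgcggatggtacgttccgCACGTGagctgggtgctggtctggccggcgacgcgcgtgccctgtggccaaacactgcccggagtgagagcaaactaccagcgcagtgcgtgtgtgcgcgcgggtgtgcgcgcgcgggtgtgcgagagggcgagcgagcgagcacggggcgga
Tef: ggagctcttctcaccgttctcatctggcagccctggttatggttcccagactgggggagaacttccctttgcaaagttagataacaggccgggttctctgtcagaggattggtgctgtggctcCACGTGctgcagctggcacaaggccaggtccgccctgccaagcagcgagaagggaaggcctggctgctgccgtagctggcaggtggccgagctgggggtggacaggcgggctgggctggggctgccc
Per3 (chr4:151044666-151044915, minus strand) holds 2 D-boxes, TTATGTAA.
Per3: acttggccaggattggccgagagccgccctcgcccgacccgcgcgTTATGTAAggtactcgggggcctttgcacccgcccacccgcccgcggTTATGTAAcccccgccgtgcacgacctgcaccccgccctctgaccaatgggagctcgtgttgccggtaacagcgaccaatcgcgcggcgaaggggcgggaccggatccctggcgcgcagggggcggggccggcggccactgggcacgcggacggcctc
Nfil3 (chr13:52981040-52981289, minus strand) holds 1 core of a ROR element, TAGGTCA, here on the opposite strand as TGACCTA.
Nfil3: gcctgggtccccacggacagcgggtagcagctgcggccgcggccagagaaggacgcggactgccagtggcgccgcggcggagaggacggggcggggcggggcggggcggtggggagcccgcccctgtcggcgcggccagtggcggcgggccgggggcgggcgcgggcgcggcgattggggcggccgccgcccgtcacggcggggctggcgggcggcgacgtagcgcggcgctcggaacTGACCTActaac

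Of Dbp, Arntl and 17 other clock genes, 16 had a promoter in the RefSeq table used here. Counted at the most upstream start of each gene, 5 of these held an E-box, 1 a D-box and 1 a ROR core. The 5 include Per1 and Cry1, which are not printed above. Per1 overlapped between the sets and Cry1 was lower in the high-Dbp set. Dbp, Nr1d1, Nr1d2 and Cry2 held no E-box in these 250 bases. The motifs were searched on both strands as CACGTG, as TTATGTAA or TTACGTAA, and as TAGGTCA or TGGGTCA. Over all 32851 promoters of the table, with each start of a gene counted on its own, 6.02% held the E-box, 0.931% the D-box and 5.38% the ROR core. A match is a description of the letters and no binding site was measured.

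The activator Npas2, the partner of ARNTL that can stand in for CLOCK, showed the widest gap after Dbp itself. Npas2 had 18.7, 12.5, 15.3 and 10.5 CPM in the low-Dbp libraries and 1.37, 0.783, 0.800 and 1.41 CPM in the high-Dbp libraries. All 4 low-Dbp libraries lay above all 4 high-Dbp libraries, and the log2 difference, high-Dbp minus low-Dbp, was -3.71 ± 0.26 (SE). No test is given for the clock genes, because they are known to move with Dbp and Arntl. The other activators varied less. Clock had a log2 difference of -0.39 ± 0.13 and overlapped, with 37.9 CPM in LKO 12 as its lowest value. Rora, which encodes a ROR receptor, overlapped too (-0.28 ± 0.19).

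**Figure D1:**
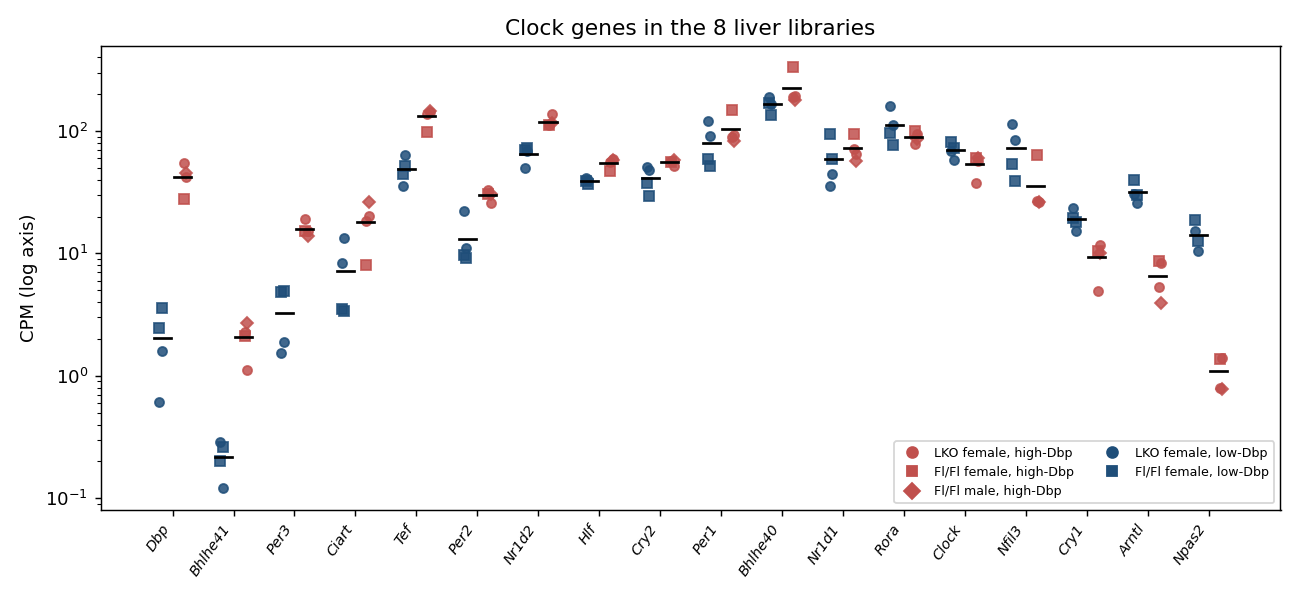
CPM of Dbp, Arntl and 16 other clock genes in each library, on a log axis, ordered by the log2 difference between the sets; blue marks the low-Dbp and red the high-Dbp libraries, the shape gives genotype and sex, and the black bar is the mean of 4 libraries. Dbp and Bhlhe41 lie far higher and Npas2 and Arntl far lower in the red points, while Bhlhe40, Nr1d1 and Per1 overlap.

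The repressors differed among themselves. Per3 had 4.80, 4.89, 1.53 and 1.88 CPM in the low-Dbp libraries and 15.3, 14.0, 19.1 and 15.1 CPM in the high-Dbp libraries, and Per2 had 9.79, 9.14, 22.1 and 11.0 CPM in the low-Dbp libraries and 30.7, 30.7, 33.1 and 26.0 CPM in the high-Dbp libraries. Both were without overlap, with log2 differences of 2.43 ± 0.34 and 1.26 ± 0.25, although Per2 in LKO 3 stood above the other low-Dbp libraries. Per1 had 59.2, 51.3, 119.9 and 91.4 CPM in the low-Dbp libraries and 149, 82.7, 90.1 and 93.2 CPM in the high-Dbp libraries. It overlapped (0.42 ± 0.30), being highest in Fl/Fl 9 and lowest in Fl/Fl 5 and Fl/Fl 7, while the 4 LKO libraries lay between 90.1 and 119.9 CPM. Bhlhe41, an E-box repressor also known as DEC2, had 0.201, 0.261, 0.290 and 0.120 CPM in the low-Dbp libraries and 2.12, 2.70, 2.29 and 1.12 CPM in the high-Dbp libraries, 9.26-fold higher in the high-Dbp set (3.21 ± 0.36). Its relative Bhlhe40 overlapped (0.42 ± 0.20). Cry1, whose RNA peaks later in the daily cycle of liver than that of the Per genes, had 19.4, 18.0, 23.7 and 15.3 CPM in the low-Dbp libraries and 10.5, 10.1, 4.90 and 11.7 CPM in the high-Dbp libraries and was lower without overlap (-1.05 ± 0.26). Cry2 was higher without overlap by a smaller amount (0.45 ± 0.14).

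Among the nuclear receptor repressors, Nr1d2 had 69.9, 72.2, 50.2 and 68.0 CPM in the low-Dbp libraries and 112, 115, 112 and 138 CPM in the high-Dbp libraries and did not overlap (0.87 ± 0.13). Nr1d1, usually described with the wider daily swing of the pair, had 94.9, 59.3, 35.8 and 44.4 CPM in the low-Dbp libraries and 94.2, 56.7, 71.8 and 65.1 CPM in the high-Dbp libraries. It overlapped, Fl/Fl 5 being as high as Fl/Fl 9 (0.36 ± 0.24). Ciart, the repressor with 3 E-boxes above, had 3.54, 3.39, 8.31 and 13.4 CPM in the low-Dbp libraries and 8.05, 26.2, 18.4 and 20.3 CPM in the high-Dbp libraries. Here LKO 3 and LKO 4 in the low-Dbp set lay above Fl/Fl 9 in the high-Dbp set, and the log2 difference was 1.55 ± 0.51.

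The other D-box factors were also higher in the high-Dbp set. Tef had 44.6, 51.5, 35.3 and 63.7 CPM in the low-Dbp libraries and 98.7, 145, 139 and 144 CPM in the high-Dbp libraries, without overlap (1.42 ± 0.20), and Hlf was higher without overlap by less (0.48 ± 0.10). Their antagonist Nfil3 had 53.3, 39.0, 113 and 84.2 CPM in the low-Dbp libraries and 63.1, 26.1, 26.9 and 26.3 CPM in the high-Dbp libraries. LKO 3 and LKO 4 were the highest of all, and Fl/Fl 9 held more than both low-Dbp Fl/Fl libraries, so the sets overlapped (-0.98 ± 0.49). In all, 9 of the 17 clock genes did not overlap, 7 higher and 2 lower in the high-Dbp set. Of 16401 other genes with enough reads, 729 (4.44%) did not overlap, 2.3% higher and 2.14% lower; since the clock genes are tied to the rule, nothing is read from the comparison. The log2 difference had the same sign in both genotypes for 13 of the 17.

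Outside the clock genes, 8 of 16401 genes (0.0488%) differed between the sets at an adjusted p under 0.05, 3 higher (0.0183%) and 5 lower (0.0305%) in the high-Dbp libraries. The test was edgeR's quasi-likelihood test with a term for genotype and Benjamini-Hochberg adjustment, and 1291 genes (7.87%) had an unadjusted p under 0.05. All adjusted p-values below are from this test unless another is named. For all 8 genes the sets did not overlap, which held for 4.44% of all genes. The choice by p for this same difference favours such a gap, so it is no further result.

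Clpx had the smallest p. It encodes the unfolding subunit of the mitochondrial ClpXP protease, which also activates the first enzyme of haem synthesis. Clpx (mm10 chr9:65294260-65330658) had 376, 344, 434 and 395 CPM in the low-Dbp libraries and 174, 164, 172 and 186 CPM in the high-Dbp libraries. The means were 174 ± 8.83 CPM in the high-Dbp and 387 ± 37.6 CPM in the low-Dbp set (SD, n = 4 each, adjusted p = 0.00193 by edgeR across all genes), 2.23-fold lower in the high-Dbp set (log2 -1.16 ± 0.09). It fell in both genotypes, by a log2 difference of -1.08 ± 0.12 in Fl/Fl and -1.23 ± 0.12 in LKO (interaction -0.15 ± 0.17).

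Loxl4 fell most. This gene of the lysyl oxidase family, whose products cross-link collagen and elastin (chr19:42593982-42612813), had 18.7, 19.7, 24.3 and 17.8 CPM in the low-Dbp libraries and 6.87, 4.38, 3.43 and 5.28 CPM in the high-Dbp libraries. That is 4.08-fold lower in the high-Dbp set (log2 -2.03 ± 0.20, adjusted p = 0.00668). Lgalsl, a galectin-related gene (chr11:20823576-20831056), had 40.3, 32.6, 42.9 and 32.9 CPM in the low-Dbp libraries and 15.6, 12.6, 13.4 and 18.0 CPM in the high-Dbp libraries (log2 -1.33 ± 0.13, adjusted p = 0.00668). Both kept the same direction in each genotype. They and Clpx were chosen by a test over both genotypes together, which favours a shared direction.

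Asap2 and Paxx fell by less. Asap2, which encodes a GTPase-activating protein for Arf (chr12:20990459-21270171), had 32.8, 31.5, 24.0 and 26.6 CPM in the low-Dbp libraries and 16.9, 14.6, 13.7 and 15.6 CPM in the high-Dbp libraries (log2 -0.92 ± 0.10, adjusted p = 0.00995). Paxx, a factor of DNA end joining (chr2:25455141-25461094), had 40.5, 36.2, 53.7 and 49.4 CPM in the low-Dbp libraries and 17.5, 20.8, 29.3 and 22.5 CPM in the high-Dbp libraries (log2 -1.002 ± 0.11, adjusted p = 0.00995). The LKO libraries lay above the Fl/Fl libraries of the same set for Paxx. Promoters were found for 6 of these 8 genes, some with more than 1 start, and Paxx alone held an E-box at any of them. Its promoter (chr2:25461095-25461344, minus strand) reads as follows.
Paxx: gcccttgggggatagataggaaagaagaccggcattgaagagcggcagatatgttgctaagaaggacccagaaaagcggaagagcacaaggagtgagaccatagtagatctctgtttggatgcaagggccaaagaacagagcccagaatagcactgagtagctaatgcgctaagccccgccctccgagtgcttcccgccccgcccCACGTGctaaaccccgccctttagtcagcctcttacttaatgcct

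The 3 genes that rose were Gys2, Gpr146 and C77080. Gys2, the liver glycogen synthase (chr6:142422613-142473109), had 104, 94.0, 104 and 102 CPM in the low-Dbp libraries and 207, 169, 206 and 173 CPM in the high-Dbp libraries. The low-Dbp libraries were within 94.0 to 104 CPM and the rise was 1.85-fold (log2 0.89 ± 0.10, adjusted p = 0.00995). Gpr146, a receptor gene linked to plasma cholesterol (chr5:139377697-139396415), had 69.0, 66.5, 50.0 and 53.2 CPM in the low-Dbp libraries and 148, 109, 108 and 85.0 CPM in the high-Dbp libraries (log2 0.90 ± 0.11, adjusted p = 0.0221). C77080 (chr4:129219578-129261404) had 77.7, 75.8, 59.5 and 61.7 CPM in the low-Dbp libraries and 112, 113, 96.6 and 96.3 CPM in the high-Dbp libraries (log2 0.61 ± 0.08, adjusted p = 0.0327). For Gpr146 and C77080 the LKO libraries lay below the Fl/Fl libraries within each set.

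**Figure D2:**
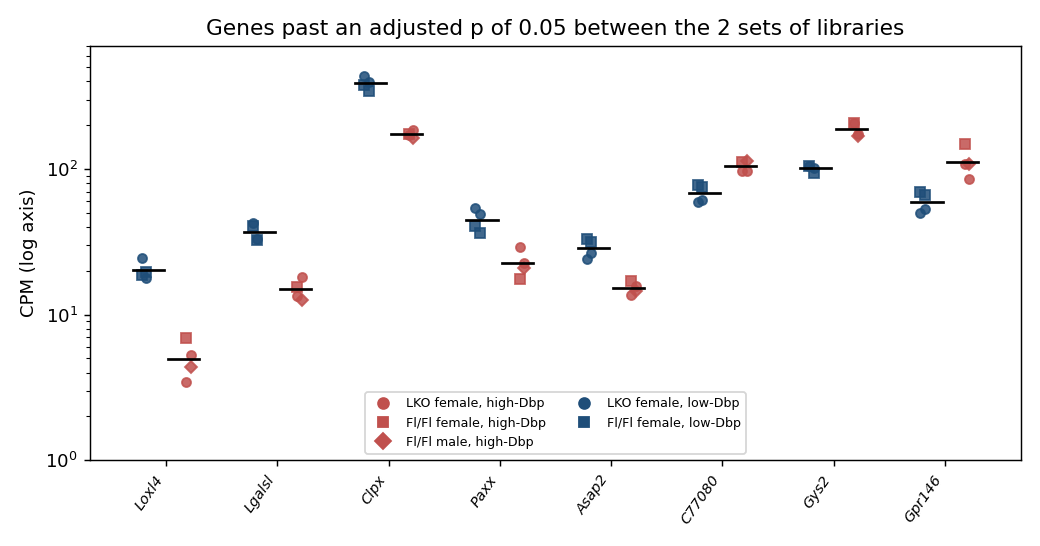
CPM of the 8 genes past an adjusted p of 0.05 in each library, on a log axis; colours, shapes and bars as in the plot of clock genes. Red and blue points do not overlap for any of the 8, with Loxl4 at 3.43 to 6.87 CPM in the high-Dbp set against 17.8 to 24.3. The genes were chosen by the test of this difference, so the gap is no further result.

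Clpx, Lgalsl and Loxl4 passed the threshold in all 18 other settings, with adjusted p up to 0.0287, 0.0411 and 0.0416. Asap2 passed in 15, Gys2 and Paxx in 14, Gpr146 in 11 and C77080 in 10, and none of the 8 changed sign. The highest adjusted p was 0.08 for Asap2, 0.08 for Gys2, 0.148 for Gpr146 and 0.196 for C77080, each without LKO 12, and 0.134 for Paxx without a genotype term. Asap2 was not called without Fl/Fl 5, Fl/Fl 7 or LKO 12, Gys2 without any of these or LKO 3, and Paxx without Fl/Fl 5, LKO 3 or LKO 13. Gpr146 and C77080 were not called without Fl/Fl 5, Fl/Fl 7, LKO 3, LKO 4 or LKO 12, and C77080 also without LKO 13. Counts turned on single libraries. Without Fl/Fl 5 the test called 0 genes higher and 3 lower, without Fl/Fl 7 it called 0 and 5, without LKO 3 or LKO 12 it called 0 and 4, without Fl/Fl 9 it called 9 and 10, and without the male Fl/Fl 10 it called 15 and 22. With a term for sex, which absorbs the male library, 31 genes (0.189%) passed, and all 8 genes were among them. The same 31 were among the 37 genes (0.22%) called in the 7 female libraries.

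Egfr, Dusp1, Dtx4 and Lonrf3 were among the genes called with a sex term and not without it. They were picked after their values were seen. Egfr, the epidermal growth factor receptor, had 241, 270.4, 184 and 283 CPM in the low-Dbp libraries and 494, 801, 464 and 497 CPM in the high-Dbp libraries, highest in the male Fl/Fl 10. Its log2 difference with a sex term was 0.98 (edgeR adjusted p = 0.0392, 0.12 without the term). Dusp1, a phosphatase that switches off MAP kinases and is a glucocorticoid target, had 282, 335, 188 and 245 CPM in the low-Dbp libraries and 161, 75.3, 90.5 and 126 CPM in the high-Dbp libraries. It fell by 1.00 on the log2 scale with a sex term (edgeR adjusted p = 0.0392, 0.208 without the term). Dtx4 and Lonrf3, genes of ubiquitin ligases, had log2 differences of -0.78 and -1.39 with a sex term. Their adjusted p by edgeR was 0.0199 and 0.0392, and over all settings it ran over 3.50e-06 to 0.198 and 7.86e-08 to 0.315. For Egfr and Dusp1 that range was 2.61e-06 to 0.482 and 4.77e-05 to 0.604.

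In a list of 25 daily output genes of the liver outside the clock loop, 1 was called, Gys2, and 9 of 25 did not overlap. The share was 4.44% over all genes. Daily output genes may follow Dbp and Arntl, which set the rule, and the list was chosen with earlier results known. Nothing is therefore read from this comparison. Higher without overlap were Gys2, Nampt and Coq10b, and lower were Insig2, Tfrc, Avpr1a, Slc45a3, Lonrf3 and Acot1. Coq10b, a coenzyme Q binding protein, had 31.6, 25.4, 40.2 and 33.1 CPM in the low-Dbp libraries and 81.1, 43.2, 60.9 and 54.4 CPM in the high-Dbp libraries (log2 0.88 ± 0.19, adjusted p = 0.244). Insig2, which holds back sterol synthesis, had 524, 399, 511 and 538 CPM in the low-Dbp libraries and 324, 333, 285 and 341 CPM in the high-Dbp libraries (log2 -0.62 ± 0.12, adjusted p = 0.171). Neither passed the threshold in these 8 libraries. Slc45a3, a sugar transporter gene, was at log2 -0.95 ± 0.14 (adjusted p = 0.0547). The list's median log2 difference was 0.07, beside 0.0076 for all genes tested. Wee1 and Cdkn1a, cell cycle regulators with daily rhythms in liver, overlapped. Wee1 had 6.18, 4.08, 14.2 and 11.6 CPM in the low-Dbp libraries and 18.2, 8.69, 17.3 and 14.2 CPM in the high-Dbp libraries, and Cdkn1a had 26.4, 20.1, 161 and 122 CPM in the low-Dbp libraries and 25.7, 19.0, 38.7 and 43.8 CPM in the high-Dbp libraries, highest in LKO 3 and LKO 4.

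No target of the PAR bZIP factors in liver passed the threshold. Of 13 in the list, 4 had a positive log2 difference and 9 a negative one, the median was -0.17 and each overlapped between the sets. An unadjusted p under 0.05 was reached by 4 of the 13 in edgeR, beside 7.87% of all genes tested. Dbp is itself a PAR bZIP factor and set the rule, so nothing is read from this count. Usp2, an E-box gene that encodes a deubiquitinase, is in the list of 9 clock kinases and ubiquitin ligases and had 3.08, 3.69, 6.98 and 14.9 CPM in the low-Dbp libraries and 7.00, 26.0, 18.7 and 24.9 CPM in the high-Dbp libraries (log2 1.62 ± 0.56, adjusted p = 0.59). Its values resembled those of Ciart, with Fl/Fl 9 below LKO 4. Cyp7a1, the rate-limiting enzyme of bile acid synthesis, had 92.3, 204, 87.8 and 89.6 CPM in the low-Dbp libraries and 75.6, 45.1, 191 and 159 CPM in the high-Dbp libraries and overlapped, and its log2 difference of -0.17 ± 0.58 turned positive in some settings, 0.25 with a sex term and 0.29 without Fl/Fl 7. Por, which passes electrons to the P450 enzymes, had a log2 difference of 0.13 ± 0.13.

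The other lists held no gene past the threshold between the sets. The 26 immediate early genes had a median of -0.51, 20 of 26 having a negative log2 difference, and the median was -0.24 in the 7 female libraries. Fos had 299, 269, 12.8 and 7.39 CPM in the low-Dbp libraries and 31.5, 4.69, 6.75 and 4.87 CPM in the high-Dbp libraries, with Fl/Fl 5 and Fl/Fl 7 far above the other 6. Medians were -0.13 for 19 heat shock genes, 0.11 for 20 genes of lipogenesis and feeding, -0.06 for 25 of fasting and gluconeogenesis, -0.02 for 17 glucocorticoid targets and -0.0012 for 25 of cholesterol synthesis. All 16 male-biased liver genes had a positive log2 difference, with a median of 1.52, and of 0.41 without the male. Their summed level was 19224 CPM in Fl/Fl 10 and 2718 to 5168 CPM in the others. Several, such as the Mup and Cyp4a12 genes, have near-identical copies among which reads may be split.

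Markers of other liver cell types overlapped between the sets for the whole lists. Summed over 8 markers each, hepatocyte genes were at 83833 to 139098 CPM in the high-Dbp and 121726 to 134452 CPM in the low-Dbp set, the lowest value being that of the male. Cholangiocyte markers were at 42.1 to 54.8 and 44.2 to 60.7 CPM, Kupffer cell and macrophage markers at 302.5 to 471 and 309.9 to 414 CPM, and stellate cell and fibroblast markers at 223 to 393 and 318 to 382 CPM. The cholangiocyte gene Sox9 was lower without overlap (4.29, 3.80, 4.72 and 4.64 CPM in the low-Dbp and 3.75, 3.61, 2.04 and 2.48 CPM in the high-Dbp set, adjusted p = 0.527). In bulk liver, fewer cells of a type and less RNA per cell cannot be told apart. Whether cell makeup plays a part in the differences above was not tested.

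The difference between the sets was then taken within each genotype, 2 libraries against 2. Across 16401 genes the Fl/Fl and LKO differences had a Pearson r of 0.0688, a description across genes with no p, and 49.9% had the same sign. Without Fl/Fl 10 the r was 0.0802 and the share 51.5%, taken for both genotypes from plain log2(CPM + 0.5) with no model fit. These values therefore differ from the first ones in scale as well as in library. Genes with a mean of 1 CPM or more that differed by at least 1 on the log2 scale numbered 454 in Fl/Fl and 135 in LKO. Of these, 40 did so the same way in both and 12 in opposite ways. The counts include the male Fl/Fl 10 and were not taken without it. Male-biased genes with a wide SE were among the 40, such as Cyp4a12a with 7.68 ± 3.20 in Fl/Fl and 3.73 ± 3.22 in LKO. Several clock genes had near values in both genotypes. Arntl differed by -2.47 in Fl/Fl and -2.06 in LKO, Tef by 1.36 and 1.48, and Npas2 by -3.85 and -3.56. Per3 and Nfil3 were farther apart, with 1.61 against 3.30 and -0.05 against -1.91.

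**Figure D3:**
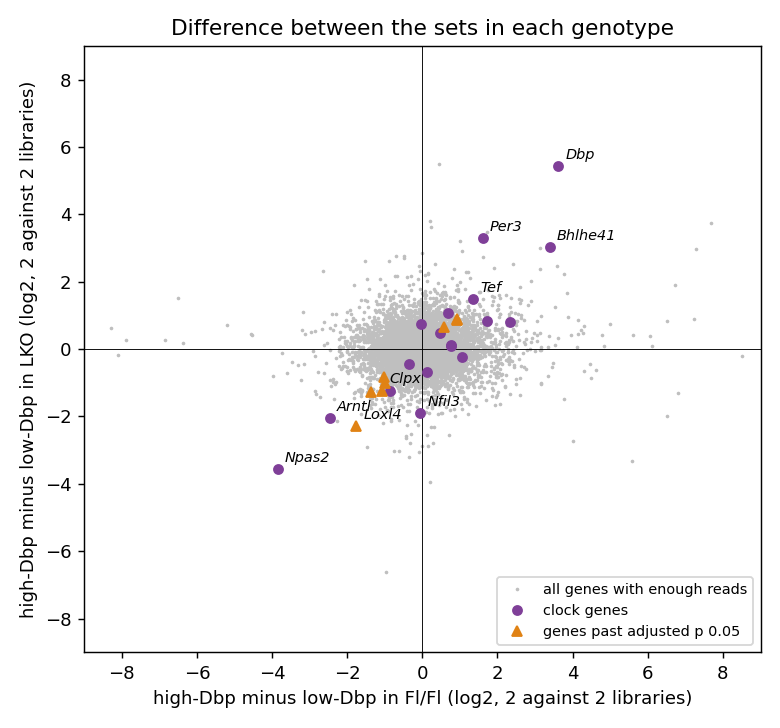
Log2 difference between the high-Dbp and low-Dbp libraries in Fl/Fl (horizontal) and in LKO (vertical), 2 against 2 libraries each; grey points are the genes with enough reads, purple the clock genes and orange the 8 genes past an adjusted p of 0.05. Grey points have a Pearson r of 0.0688. The orange genes were chosen by a test over both genotypes together and the purple ones are tied to the rule, so their place in the lower left or upper right is no result.

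The sets took a smaller part of the spread between libraries than sex did. Of the sum of squares over the 16401 genes, the sets took 16.8%, genotype 18.5% and sex, which is 1 library, 28.6%. Each share was fitted alone, and they overlap because the male is also a high-Dbp and a Fl/Fl library. Any split of 8 libraries takes some share by chance, and that share was not estimated. The first principal component (29.4% of the variance) set the male Fl/Fl 10 apart. The second (20.3%) put all 4 Fl/Fl above all 4 LKO libraries, with Fl/Fl 5 and Fl/Fl 7 farthest from the rest, and the third (14.2%) set Fl/Fl 9 apart. None of these 3 split the high-Dbp from the low-Dbp libraries.

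For 9 of 16418 genes (0.0548%) the difference between the sets differed between the genotypes in a test of the interaction itself (edgeR quasi-likelihood, adjusted p under 0.05), 2 in the positive (0.0122%) and 7 in the negative direction (0.0426%). An unadjusted p under 0.05 was reached by 1443 genes (8.79%). Eppk1, which encodes the cytolinker epiplakin, had 11.5, 11.3, 78.6 and 65.7 CPM in the low-Dbp libraries and 38.6, 45.2, 47.4 and 51.0 CPM in the high-Dbp libraries. It was low in Fl/Fl 5 and Fl/Fl 7 only, so the sets differed by 1.90 in Fl/Fl and by -0.57 in LKO, an interaction of -2.47 ± 0.20 (adjusted p = 0.00649 by edgeR). Map3k6, a kinase of the MAP kinase cascade, had 1.19, 1.19, 8.01 and 8.01 CPM in the low-Dbp libraries and 4.71, 5.54, 5.92 and 6.18 CPM in the high-Dbp libraries. Tnfrsf1b, a receptor for tumour necrosis factor, had 49.5, 52.0, 154 and 129.7 CPM in the low-Dbp libraries and 118, 127, 131 and 121 CPM in the high-Dbp libraries. Rcan1, an inhibitor of calcineurin, had 33.8, 32.7, 154 and 112 CPM in the low-Dbp libraries and 89.9, 101, 121 and 119.8 CPM in the high-Dbp libraries. In each of these Fl/Fl 5 and Fl/Fl 7 were the lowest 2 libraries. Gas1, a surface protein that binds hedgehog ligands, was highest in them, with 22.1, 24.0, 10.3 and 11.0 CPM in the low-Dbp libraries and 8.92, 6.70, 13.03 and 13.7 CPM in the high-Dbp libraries. The interactions were -2.55 for Map3k6, -1.48 for Tnfrsf1b, -1.70 for Rcan1 and 1.86 for Gas1, each at an adjusted p of 0.0454 by edgeR.

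The other 4 of these genes were Plec, Zfp36, Dusp4 and 1700017B05Rik. In 9 of 9, Fl/Fl 5 and Fl/Fl 7 lay on 1 side of the other 6 libraries, as they did for 20.5% of all genes tested. The choice by p for the interaction favours genes in which 1 genotype within 1 set stands apart, so this gap is no further result. Immediate early RNAs were high in the same 2 libraries: the list summed to 4331 and 3577 CPM there and to 769.6 to 2562 CPM elsewhere. Gas1 was high there too, while Eppk1, Map3k6, Tnfrsf1b and Rcan1 were lowest there. The part of the immediate early genes in the result was not tested. The count of 9 became 0 without Fl/Fl 5, Fl/Fl 7, LKO 3, LKO 12 or LKO 13, 3 without LKO 4, 70 (0.415%) without the male Fl/Fl 10 and 854 without Fl/Fl 9, which leaves the male as the only high-Dbp Fl/Fl library. Other tools and terms moved it too, to 1 with limma voom, 0 with limma on FPKM, 62 with a sex term and 149 with DESeq2. With voom Eppk1 alone passed, and Map3k6, Tnfrsf1b, Gas1 and Rcan1 were each at an adjusted p of 0.0509.

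**Figure D4:**
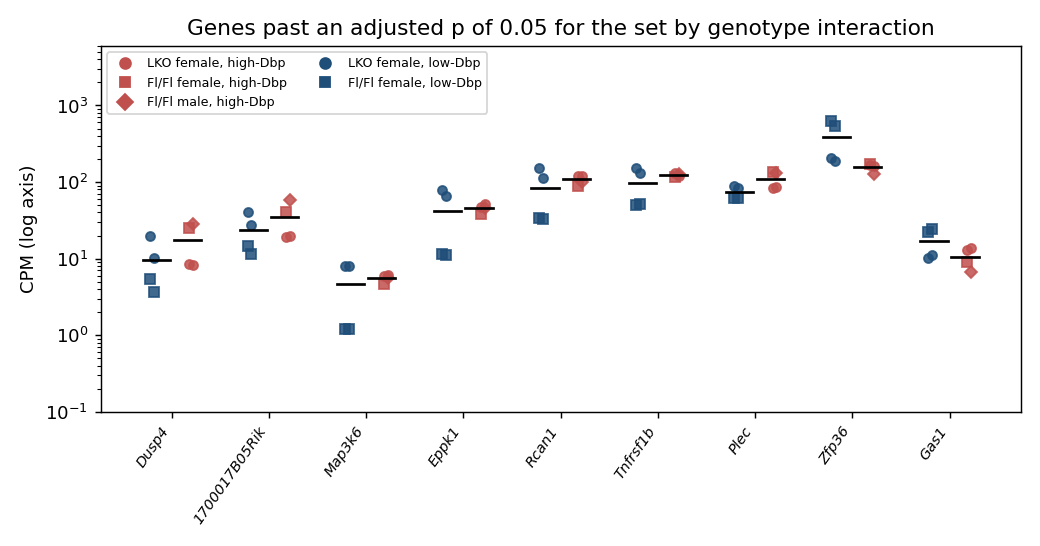
CPM of the 9 genes past an adjusted p of 0.05 for the interaction of set and genotype, on a log axis; colours, shapes and bars as in the plot of clock genes. Blue squares, Fl/Fl 5 and Fl/Fl 7, lie apart from the other 6 libraries in each gene. The genes were chosen by the interaction test, which favours such a gap, so it is no further result.

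Since each set holds 2 libraries of each genotype, LKO was also compared with Fl/Fl with a term for the sets. Mt1 and Gcnt2 rose in LKO (2 of 16418 genes, 0.0122%) and no gene fell (0.0%), with 1399 genes (8.52%) at an unadjusted p under 0.05 by edgeR. DESeq2 called 187 genes in the same comparison. Mt1, a metal-binding metallothionein, had 208, 232, 507 and 659 CPM in the low-Dbp libraries and 234, 283, 531 and 587 CPM in the high-Dbp libraries. LKO was higher in both sets, by 1.45 ± 0.18 on the log2 scale among low-Dbp and 1.11 ± 0.18 among high-Dbp libraries (both sets together 1.28 ± 0.14, adjusted p = 0.0306 by edgeR). Gcnt2, which branches glycan chains, had 22.6, 27.3, 48.7 and 52.1 CPM in the low-Dbp libraries and 35.8, 37.2, 65.4 and 58.1 CPM in the high-Dbp libraries, higher in LKO within each set (together 0.91 ± 0.11, adjusted p = 0.0423 by edgeR). Without a term for the sets 1 gene (0.00609%) passed, Mt1, and Gcnt2 was at an adjusted p of 0.203 by edgeR. Over all settings the adjusted p ran over 1.96e-13 to 0.189 for Mt1 and 3.05e-09 to 0.203 for Gcnt2. Without Fl/Fl 5, LKO 3, LKO 12 or LKO 13 no gene passed, and 14 passed without Fl/Fl 9 and 339 (2.01%) without the male. Without Fl/Fl 7 Mt1 was at 0.11 and Gcnt2 at 0.139, and without LKO 4 Gcnt2 was at 0.129 (edgeR adjusted p).

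With a sex term the term for the sets added calls. It gave 353 genes (2.15%), against 232 (1.41%) with a sex term alone. The 225 genes in both were 63.7% of the first list and 97.0% of the second. Map2k6, a kinase of the p38 pathway, Slc29a1, a nucleoside transporter, and Sort1, a sorting receptor, differed in the same direction in both sets. Map2k6 was higher in LKO by 1.38 and 1.20 on the log2 scale among low-Dbp and high-Dbp libraries, and Sort1 had -0.67 and -0.75. These 3 genes were chosen by their p over both sets together, which favours a shared direction. Hhex, a homeobox gene of liver and bile duct development, had -2.34 among the low-Dbp and -1.38 among the high-Dbp libraries, and its interaction had an adjusted p of 0.471 by edgeR. It passed with a sex term alone (adjusted p = 0.0382 by edgeR) and not with terms for sex and the sets (0.0559) or for the sets alone (0.0979).

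**Figure D5:**
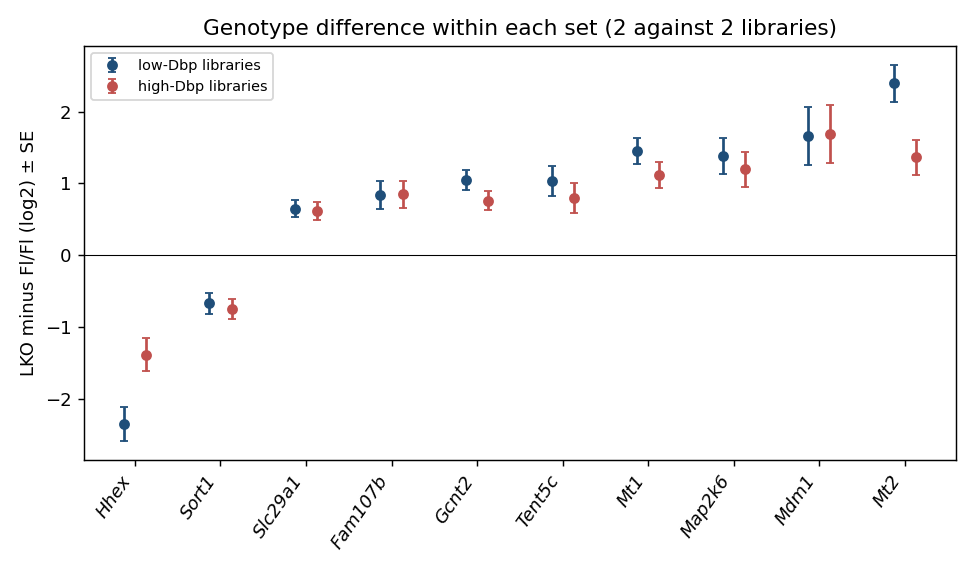
Log2 difference of LKO and Fl/Fl, with its SE, within the low-Dbp libraries (blue) and within the high-Dbp libraries (red), 2 against 2 libraries each, for the 10 genes with the smallest p for genotype with a term for the sets. Only Mt1 and Gcnt2 of the 10 passed an adjusted p of 0.05 in that fit, and a choice by p over both sets favours genes with 1 direction in both, with Mt1 at 1.45 and 1.11.

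In the fit with terms for sex and for the sets, LKO minus Fl/Fl was 1.53 for Ciart and 1.71 for Usp2 on the log2 scale. Both genes were picked after their values were seen, and no p is given for that fit because its term for the sets comes from genes of the same loop. With a sex term and no term for the sets the values were 1.63 and 1.87, and neither passed (adjusted p = 0.148 and 0.155 by edgeR). In the low-Dbp set Ciart had 3.54 and 3.39 CPM in the 2 Fl/Fl livers, and 8.31 and 13.4 CPM in the 2 LKO livers. Nfil3, Per1 and Per3 had the widest interactions among the clock genes in the fit with a sex term, at -2.34 ± 0.26, -1.63 ± 0.20 and 1.66 ± 0.28. They too are given without a p.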

How the data were processed

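The authors deposited 1 table with whole-number read counts per gene, normalised signal values that equal the counts divided by a size factor per library, and FPKM values, per the file headers. The deposited table also holds the authors' own log2 fold changes and p-values of LKO against Fl/Fl, which were not used here. Per the labels' protocols, libraries came from total RNA with the NEBNext Ultra RNA kit. The submitters' processing notes name the build mm10 and, with no role or version, the tools edgeR, DESeq2, DESeq, featureCounts, HTSeq, STAR and fastp. No source used here gives the strand setting, so overlapping genes on opposite strands and near-identical copies are uncertain.

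From the deposited counts, CPM was taken over the column sum, and libraries were split by whether Dbp CPM lay above or below Arntl CPM. The filter on low counts was filterByExpr by genotype, and genes were scaled by TMM and tested in R 4.3.3 with edgeR 4.0.16 (robust glmQLFit and glmQLFTest, two-sided, Benjamini-Hochberg adjusted, threshold 0.05), with terms for set and genotype. Log2 differences are TMM-scaled and levels are plain CPM. Dbp, Arntl and 17 clock genes were left out of the set test, and 1 of the 17 is counted but not reported here. The edgeR set test alone was tested on simulated data, in 1 draw of counts with known changes, where false calls were a larger share of calls than the threshold of 0.05. Floors of 3 reads cover counting error only, while each SE and SD also takes in the spread between libraries. Nothing in the labels says that libraries of a group came from separate litters or were made on separate days, so p-values reflect how far these libraries vary. Libraries with the closest counts, Fl/Fl 5 and Fl/Fl 7, differed by more than sampling noise (chi-square per degree of freedom 35.1).

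The split, the clock genes and the 29 gene lists were chosen with earlier results of these data known. The rule for named genes took the clock genes, the 10 largest rises and falls past the threshold with at least 1 CPM and no overlap, the 5 smallest p in each direction, up to 5 called members of each list or else its member with the smallest p, 5 interaction genes and 10 genotype genes. Other genes are named by counts of 9 or fewer or after their values were seen. Alternatives were upper quartile scaling, DESeq2 size factors, a filter of 10 reads in 4 libraries or of only 1 read, DESeq2 1.42.0, limma 3.58.1 (voom, and trend on log2(FPKM + 1)), a sex term, the 7 female libraries, each library left out, no genotype term, the log2 ratio of Dbp to Arntl in place of the sets, no term for the sets, and stricter thresholds. A genotype fit with a sex term and no term for the sets was added after seeing the data.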

Additional observations from a re-analysis of the deposited data

Results flagged for a closer look

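In 140 searches of 4 libraries for 1 far from the other 3, 10 stood apart (by the size of the gap relative to the range). Chance flags about 1 in 20 groups. Fl/Fl 9 gave 4 of them among the high-Dbp libraries. Per1 was at 149 CPM there against 82.7 to 93.2 in the other 3, Bhlhe40 at 333 against 179 to 193, Nfil3 at 63.1 against 26.1 to 26.9, and Tef at 98.7 against 139 to 145. Clock was lowest in LKO 12 (37.9 against 57.1 to 60.0 CPM) and Nr1d2 highest in LKO 13 (138 against 112 to 115 CPM). Per2 was high in LKO 3 among the low-Dbp libraries (22.1 against 9.14 to 11.0 CPM). Gnl3, a nucleolar GTPase gene, was low in Fl/Fl 5 (20.8 against 23.1 to 23.4 CPM). Alas2, the erythroid enzyme of haem synthesis, was at 120.1 CPM in Fl/Fl 10 against 17.1 to 27.5, and at 20.7 CPM in Fl/Fl 7 against 15.2 to 15.9.

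The difference between the sets differed between genotypes for 9 genes by edgeR's interaction test. The 5 with the smallest p were Eppk1 (-2.47 on the log2 scale), Map3k6 (-2.55), Tnfrsf1b (-1.48), Gas1 (1.86) and Rcan1 (-1.70).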

How the results depend on the processing

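Of the genes followed through the settings, Cyp7a1 changed sign between the sets: its log2 difference was 0.25 with a sex term, 0.26 in females (the same fit as without Fl/Fl 10), 0.00300 per unit of the log2 ratio, and from -0.50 without LKO 3 to 0.29 without Fl/Fl 7 with a library left out (0.06 without Fl/Fl 9). Each of the 8 genes called between the sets was fitted in 18 other settings. Of these gene-by-setting pairs 118 stayed past the threshold and 26 did not. For followed genes not called, 35 pairs passed. Genes higher in the high-Dbp set, 3 in the fit reported, were 19 with no filter, 91 with DESeq2, 1 with FPKM, 13 with a sex term, 15 in females, 1 without a genotype term, 11 with the log2 ratio, 1 at an adjusted p of 0.01 and 0 with a change of at least 1 on the log2 scale. Genes lower, 5 as reported, were 39 with no filter, 115 with DESeq2, 18 with a sex term, 22 in females and 18 with the log2 ratio. Leaving out a library gave 0 to 15 higher (0 without Fl/Fl 5, Fl/Fl 7, LKO 3 or LKO 12) and 3 to 22 lower (3 without Fl/Fl 5, 22 without Fl/Fl 10). The interaction count, 9, was 111 with no filter, 149 with DESeq2, 1 with voom, 0 with FPKM (limma), 62 with a sex term, 70 in females, 1 at 0.01 and 0 to 854 with a library left out. The genotype count with a term for the sets, 2, was 54 with no filter, 187 with DESeq2, 0 with FPKM, 353 with a sex term, 339 in females, 1 with no term for the sets, 232 with a sex term and no term for the sets, 0 at 0.01, 1 with a change of at least 1, and 0 to 339 with a library left out. The cause of these shifts was not tested. No paired analysis was possible because the labels give the genotypes different replicate numbers. With 2 libraries of each genotype in a set, precision is limited by their number rather than by depth.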
